A study of Mus musculus with 4 samples.

Results

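The genes described here encode Mediator, RNA polymerase II (Pol II) and the general transcription factors of mouse macrophage-like cells. They were chosen by symbol, as every gene of the deposited table named Med, Taf, Polr2 or Gtf2a to Gtf2h with its number or letter, pseudogenes left out. The rule found 80 of 41324 genes, namely 30 Mediator genes, 23 TAF genes, 13 genes of TFIIA to TFIIH, 12 Pol II subunits, the Pol II associated gene Polr2m and the non-coding Med9os. Of these, 74 reached a mean of at least 1 CPM (a gene's counts scaled to a common library total) and were tested.

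The RAW264.7 line of mouse macrophages was exposed to 10 µg/ml actinomycin D, which binds DNA and stops transcription, so that the loss of each mRNA could be timed. There was 1 library of untreated cells and 1 each at 2, 4 and 6 h of the drug, all from the same unmodified line. The labels describe cytoplasmic RNA, freed of ribosomal RNA and made into strand-keeping libraries, and they do not say whether the times were separate cultures. With no replicate at any time, each p-value rested on the scatter of 4 libraries around a line or curve, moderated across the genes tested.

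Pol II makes the mRNA of nuclear genes, and it starts only after general factors have assembled with it on the promoter. TFIID, built from the TATA-binding protein and TAFs, recognises the promoter, TFIIB and TFIIF bring in the polymerase, and TFIIE and TFIIH open the DNA. Mediator, with its head, middle, tail and separable kinase module, bridges these factors and the activators bound at enhancers.

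The libraries held 35669434 counts untreated and 38260540, 70289647 and 12762100 counts at 2, 4 and 6 h, so the 6 h values carried the widest counting error. All 8 macrophage markers were present, from 659 counts of the integrin Itgam to 43927 of the lysozyme Lyz2 in untreated cells. Markers of T cells, epithelium and hepatocytes (Cd3e, Epcam, Alb) were at 0 in all 4 libraries, which allows up to 3 counts each. The fibroblast marker Col1a1 had 5, 1, 1 and 0 counts and the endothelial marker Pecam1 3, 17, 31 and 5. As a check of the shut-off, the short-lived Nfkbia mRNA stood at 9.5%, 9.5% and 11.6% of untreated at 2, 4 and 6 h. Others of this kind were lowest at 2 h, with Fos at 15.1%, 18.4% and 28.4%, Tnf at 16.4%, 18.2% and 27.9% and Ier2 at 46.6%, 53.3% and 81.9%. Values below are scaled CPM, that is CPM on the effective library sizes that edgeR's TMM method estimates. TMM sets the typical gene to no change, so a value near 100% of untreated describes an mRNA that changed about as the typical one did. An increase in scaled CPM describes one whose level fell less than the typical one or did not fall. Whether any mRNA was still made under the drug was not tested. On the authors' deposited normalized values Ier2 also rose, from 38.3% of untreated at 2 h to 57.2% at 6 h, and Fos from 12.4% to 19.8%. In such bulk libraries fewer cells and less RNA per cell cannot be told apart.

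Before treatment the transcripts of this machinery spanned a wide range. Per kilobase of the reference transcript, Med22 was highest with 153 scaled CPM, followed by the Pol II subunit Polr2e with 70.0, Polr2m with 67.7 and Polr2f with 59.7. The catalytic subunit gene Polr2a had 47.9, and the lowest tested member was the TFIID gene Taf7 with 1.88. The median was 35.2 scaled CPM per kilobase over the 12 Pol II subunits, 20.1 over 12 general factor genes, 16.8 over 29 Mediator genes and 10.1 over 20 TAF genes. Each of these levels came from 1 library and 1 transcript model, so the order was not tested.

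**Figure D1:**
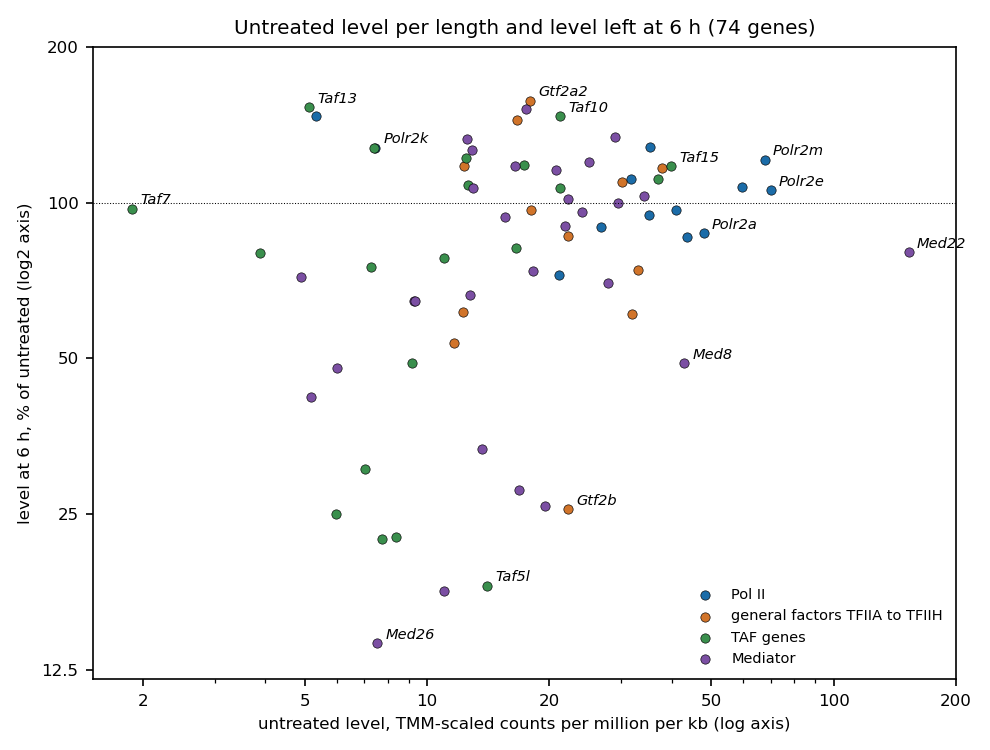
Untreated level per kilobase of transcript (scaled CPM per kilobase, horizontal log axis) and level at 6 h (percent of untreated, vertical log2 axis) of the 74 tested members, 1 library per time, coloured by group. Med22 lies farthest right at 153, Taf7 farthest left at 1.88, and the members that fell lie between 7.05 (Taf5) and 42.8 (Med8).

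Along a straight line over the course, 15 of 74 members fell and 4 rose by edgeR's quasi-likelihood test at a Benjamini-Hochberg adjusted p under 0.05, which is 20.3% and 5.41%. Among all 10837 genes tested 16.8% fell and 8.03% rose, so the members' shares were near the background. The members that fell were Taf5l, Taf3, Taf8, Gtf2b, Med17, Med4, Taf5, Med6, Med8, Taf1b, Gtf2e1, Gtf2f1, Gtf2h2, Med23 and Gtf2f2, and those that rose were Taf13, Med14, Taf10 and Gtf2h5. The median slope was −0.019 log2 per h over the members and 0.0014 over all genes. At 6 h, 15 members (20.3%) were below 50% of untreated, as were 1734 of all genes (16.0%).

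A joint test of line and curve asked for any change over the course. Genes that passed took their direction from the mean log2 change of the treated libraries from untreated. By that sign 33 members (44.6%) were lower and 23 (31.1%) higher, against 36.2% and 31.6% of all genes. The sign itself was not tested, and some mean changes were small, such as −0.008 for Gtf2h4 (lower) and 0.029 for Polr2b (higher). Calls depended on the scaling and on the 4 h library. The 15 falls numbered 8 of the same genes with total counts and 15 with the divisors behind the deposited normalized values, under which 45 members fell in all. Among all 10837 genes 1318 fell with total counts and 4963 with those divisors. None of the 4 rises passed with total counts or with those divisors. Without the 4 h library only Taf3, Taf5l, Gtf2b, Med17 and Med4 still passed as falls, and no rise did. Med23 missed the test without the untreated library, Taf1b, Gtf2h2 and Gtf2f2 without the 2 h or the 6 h library, Taf13 whichever library was left out, and Gtf2h5 also without the untreated or the 2 h library.

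**Figure D2:**
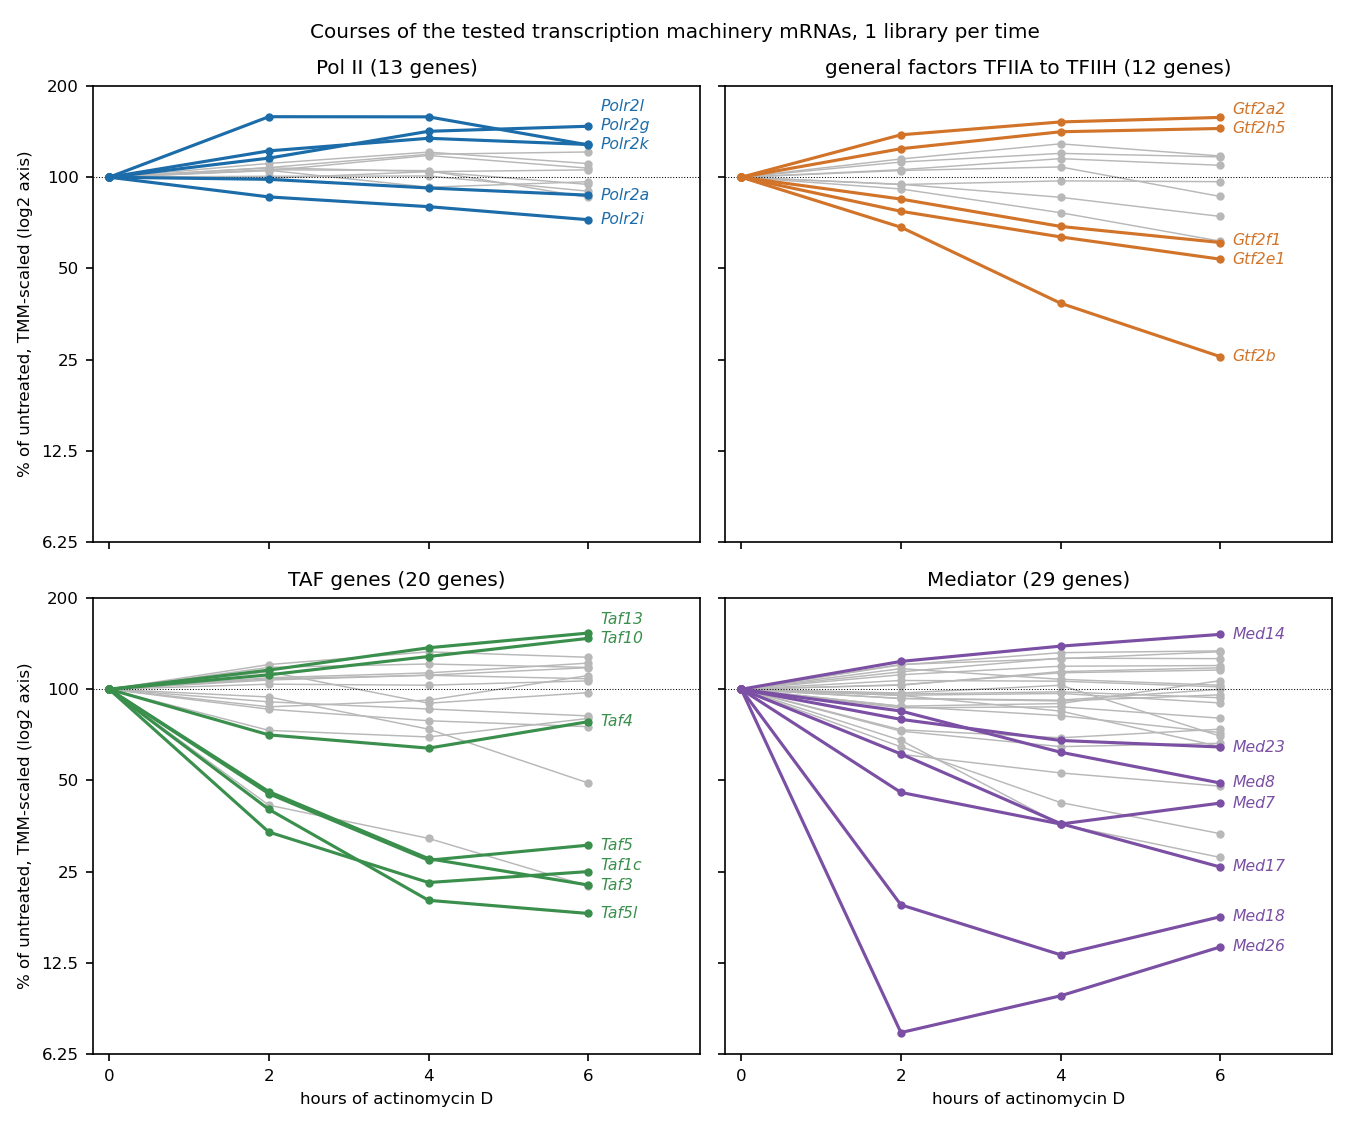
Percent of the untreated level (log2 axis) at 0, 2, 4 and 6 h of actinomycin D for the tested members, 1 panel per group (Polr2m with Pol II) and 1 line per gene, named genes in colour. Mediator and TAF lines fan out from 14.1% (Med26) to 153% (Taf13) at 6 h, where the Pol II subunits lie between 72.4% and 147%.

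Of 29 Mediator genes tested 5 fell (17.2%) and 1 rose (3.45%), against 16.8% and 8.03% of all genes, so the share of falls was near the background. The Mediator head, which contacts Pol II most directly, held the largest set of these falls, with 3 of 8 members falling (37.5%). In the joint test 7 of 8 head members were lower (87.5%, against 36.2% of all genes). With total counts 5 were lower and 1 higher, and without the 4 h library 1 fell, as did 342 of 10847 genes. Med17, the central head subunit, had 77.3 scaled CPM untreated and 47.3, 27.9 and 20.03 at 2, 4 and 6 h. Each library was below the one before it, and the slope was −0.33 ± 0.021 log2 per h (SE, edgeR adjusted p = 0.0148). At 6 h Med17 stood at 25.9% of untreated, with an exact binomial counting interval of 22.6 to 29.6%. Med6, a head subunit that reaches toward the middle module, had 14.5, 9.33, 6.11 and 4.82 scaled CPM at 0, 2, 4 and 6 h, and its slope was −0.27 ± 0.033 (edgeR adjusted p = 0.0188). Med8, which tethers the movable part of the head, had 49.0, 41.5, 30.4 and 24.04, with a slope of −0.18 ± 0.019 (edgeR adjusted p = 0.0168). Both thus declined at every step, Med6 to 33.4% and Med8 to 49.0% of untreated.

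Med18, which pairs with Med20 in that movable part, took another course. It had 561 counts untreated and 155, 186 and 40 at 2, 4 and 6 h, or 18.4, 3.58, 2.45 and 3.27 scaled CPM. Nearly all of the loss lay before 2 h, when it stood at 19.4% of untreated, and it then stayed between 13.3% and 19.4%. A straight line did not pass (edgeR adjusted p = 0.0721), whereas the bend did (adjusted p = 0.00047). Of the other head genes, Med20 stood at 64.7%, Med11 at 70.0%, Med22 at 80.3% and Med19 at 93.7% at 6 h, none past the line test.

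In the middle module, Med4 fell and its partner Med9 did not pass the test. Med4 had 22.3, 15.1, 7.99 and 6.21 scaled CPM at 0, 2, 4 and 6 h (slope −0.33 ± 0.035, edgeR adjusted p = 0.0169). Med9 had 24.9, 21.9, 22.3 and 26.6 (adjusted p = 0.724), so the 2 genes started at like levels and ended far apart. Med26, a subunit that joins only some Mediator complexes and recruits elongation factors, had the lowest percentage of untreated of any tested member at 2 h. Its counts were 688 untreated and 72, 167 and 39 at 2, 4 and 6 h, or 7.4%, 9.7% and 14.1% of untreated. The drop was complete by 2 h, and the later values crept upward, so the line test was not passed (slope −0.52 ± 0.21, edgeR adjusted p = 0.124) and the bend test was (adjusted p = 0.0021). Without the untreated library the slope of Med26 turned to 0.23 (edgeR adjusted p = 0.0494), and it lay between −0.45 and −0.86 without any other single library.

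Med7, which forms the hinge of the middle module with Med21, stood at 45.7%, 35.9% and 42.1% of untreated, and its bend passed (edgeR adjusted p = 0.0055). Its partner Med21 stood at 117%, 108% and 103%. Med10 reached 134% at 6 h and was higher in the joint test (edgeR adjusted p = 0.0027), while Med1, the docking subunit for nuclear receptors, stood at 95.9% and Med31 at 71.9%.

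Med14, the scaffold that joins head, middle and tail, rose. It had 122, 150.2, 169 and 185 scaled CPM at 0, 2, 4 and 6 h, each library above the one before. The slope was 0.10 ± 0.015 log2 per h (edgeR adjusted p = 0.0244), and 0.012 with the deposited divisors (adjusted p = 0.332). Scaffold and head centre therefore ended on opposite sides of the typical gene, at 152% for Med14 and 25.9% for Med17.

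Of 5 tail genes only Med23, a docking site for growth-factor-regulated activators, fell, with 44.5, 35.4, 30.2 and 28.7 scaled CPM (slope −0.11 ± 0.021, edgeR adjusted p = 0.0357). Med15, Med24, Med25 and Med16 stood between 100.0% and 118% of untreated at 6 h. Among the 4 genes at the junction of head and tail, Med29 stood at 47.9% (line test, edgeR adjusted p = 0.0535), Med27 at 90.1%, Med30 at 119.7% and Med28 at 126%. No junction gene passed the line test by edgeR, 2 had an unadjusted p under 0.05, and DESeq2 called Med28 as a rise.

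The kinase module, which can detach from Mediator and carries Cdk8 or Cdk19 with cyclin C, divided between its 2 large subunits. Med13, which links the kinase to core Mediator, had 193, 142, 133 and 142 scaled CPM at 0, 2, 4 and 6 h, a drop before 2 h and a plateau after it. Its close relative Med13l stood at 72.7%, 64.7% and 66.3% of untreated, and both bent upward (edgeR adjusted p = 0.00091 for Med13 and 0.0023 for Med13l). Med12, which activates the kinase, stood at 121%, 126% and 133% and was higher in the joint test (edgeR adjusted p = 0.00059). Neither Med12, Med13 nor Med13l passed the line test by edgeR, 2 of them with an unadjusted p under 0.05, and DESeq2 called Med12 and Med13l.

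**Figure D3:**
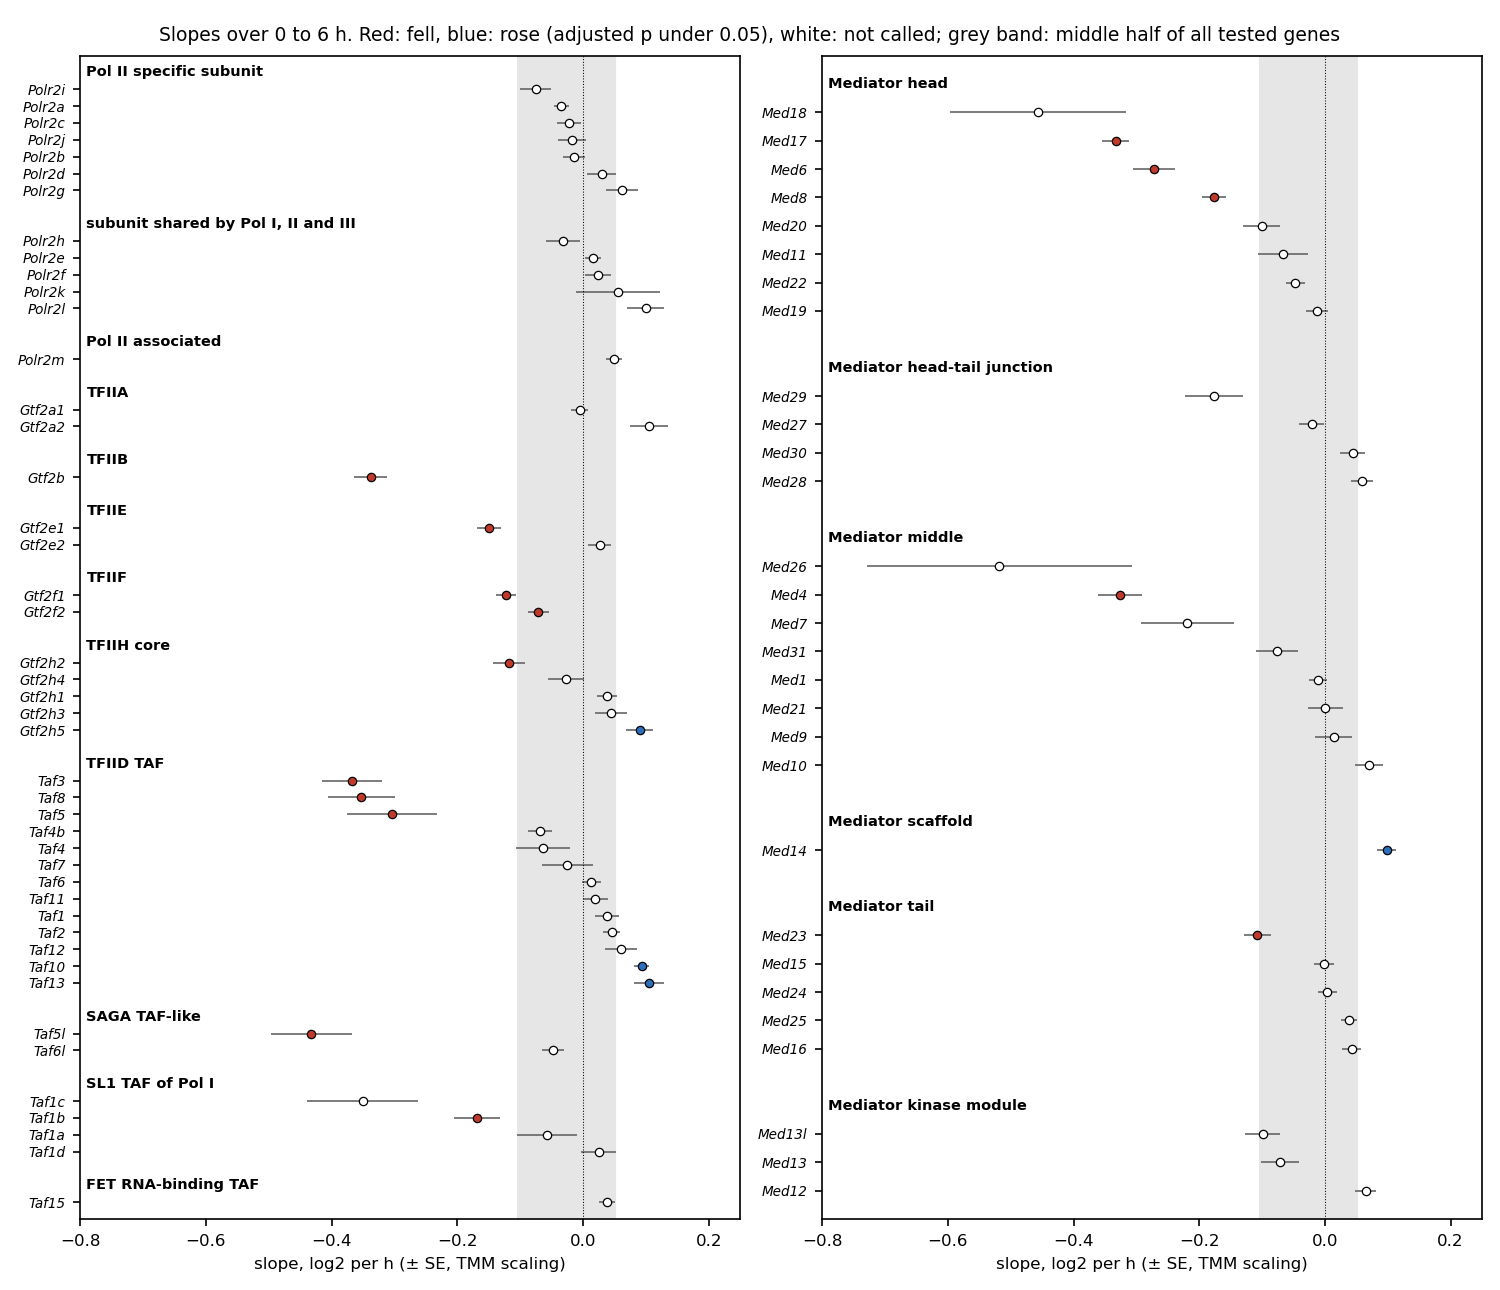
Slope over 0 to 6 h (log2 per h, points) with its standard error (bars) for every tested member, grouped by role, red where a member fell and blue where it rose by edgeR at an adjusted p under 0.05, with the middle 50% of all genes as a grey band. The 5 called Mediator falls lie between −0.33 (Med17) and −0.11 (Med23), and no Pol II subunit is coloured.

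Among the general factors 5 of 12 fell (41.7%) and 1 rose (8.33%), against 16.8% and 8.03% of all genes. These counts were 1 and 0 with total counts or without the 4 h library and 9 and 0 with the deposited divisors. Falls among all genes numbered 1318 of 10837, 342 of 10847 and 4963 of 10837 in these settings, in that order. TFIIB is a single protein, and its gene Gtf2b fell most. It had 983 counts untreated and 956, 941 and 101 at 2, 4 and 6 h, or 32.3, 22.1, 12.4 and 8.26 scaled CPM. The decline was even on the log scale (slope −0.34 ± 0.026, edgeR adjusted p = 0.0148; bend adjusted p = 0.741), and 25.6% of untreated remained at 6 h (counting interval 20.6 to 31.4%).

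TFIIE has 2 subunits, and their mRNAs parted. Gtf2e1, the large subunit, had 36.0, 27.8, 22.8 and 19.3 scaled CPM and fell (slope −0.15 ± 0.020, edgeR adjusted p = 0.0205). Gtf2e2, the small one, had 50.3, 53.2, 57.9 and 55.0 (adjusted p = 0.286). Both mRNAs of TFIIF, which escorts Pol II to the promoter, fell. Gtf2f1 fell to 60.9% at 6 h (slope −0.12 ± 0.016, edgeR adjusted p = 0.0205) and Gtf2f2 to 74.2% (−0.071 ± 0.017, adjusted p = 0.0471).

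The TFIIH core genes moved apart. Gtf2h2 fell to 61.5% at 6 h (slope −0.12 ± 0.025, edgeR adjusted p = 0.0401). Gtf2h5, the smallest subunit, had 37.3, 46.3, 52.7 and 54.0 scaled CPM and rose (slope 0.090 ± 0.021, edgeR adjusted p = 0.0466), with a slope of 0.0027 under the deposited divisors. Gtf2h1 stood at 117%, Gtf2h3 at 118% and Gtf2h4 at 86.4% of untreated at 6 h, none past the line test. In TFIIA, which stabilises TFIID on DNA, the small subunit gene Gtf2a2 had 18.5, 25.6, 28.2 and 29.2 scaled CPM, the highest percentage of any tested member at 6 h (157.5%, line test edgeR adjusted p = 0.0654). Gtf2a1, the source of the large subunits, stayed between 94.6% and 97.3%.

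TAF genes gave 5 falls and 2 rises among 20 tested (25% and 10%, against 16.8% and 8.03% of all genes). These counts were 5 and 0 with total counts, 11 and 0 with the deposited divisors and 2 and 0 without the 4 h library. Falls among all genes numbered 1318 of 10837, 4963 of 10837 and 342 of 10847 in these settings, in that order. Taf3, which reads methylated histone tails at promoters, had 40.2, 18.5, 11.1 and 9.07 scaled CPM at 0, 2, 4 and 6 h. Each library was below the one before it (slope −0.37 ± 0.048, edgeR adjusted p = 0.0205), and 22.6% remained at 6 h (counting interval 18.4 to 27.5%). Taf8 had 21.5, 8.92, 6.93 and 4.82 (slope −0.35 ± 0.053, adjusted p = 0.0243). Taf5, a core scaffold subunit, had 23.0, 10.4, 6.27 and 7.03 (slope −0.30 ± 0.071, adjusted p = 0.0459), lowest at 4 h rather than 6 h.

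Taf10, a histone-fold subunit that binds both Taf3 and Taf8 and serves TFIID as well as the coactivator SAGA, rose. Its values were 91.1, 102, 117 and 134 scaled CPM, each above the one before (slope 0.094 ± 0.012, edgeR adjusted p = 0.02; 0.0067 with the deposited divisors). Taf13 also rose, with 12.48, 14.4, 17.1 and 19.1 (slope 0.10 ± 0.024, adjusted p = 0.0434; 0.018 with the deposited divisors). Its histone-fold partner Taf11 stood at 108% at 6 h. Taf1, the largest subunit, stood at 118%, 121% and 118% of untreated and bent downward (edgeR adjusted p = 0.0243), Taf2 reached 122%, Taf12 127.5%, Taf6 107% and Taf7 97.5%. Taf4 stood at 70.7%, 63.9% and 78.1% and its relative Taf4b at 85.9%, 78.7% and 75.3%, both lower in the joint test.

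The steepest called fall of all members belonged to Taf5l, a relative of Taf5 that sits in SAGA in place of it. Taf5l had 1272 counts untreated and 726, 638 and 93 at 2, 4 and 6 h, or 41.8, 16.8, 8.40 and 7.60 scaled CPM. The slope was −0.43 ± 0.065 log2 per h (edgeR adjusted p = 0.0239), with an upward bend (adjusted p = 0.0042), and 18.2% remained at 6 h. The other SAGA relative, Taf6l, stood at 81.7%.

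Some genes of this name belong to other machines. The TAFs of SL1, the promoter factor of Pol I, gave Taf1b as a fall to 49.1% (slope −0.17 ± 0.037, edgeR adjusted p = 0.041). Taf1c had 587, 282, 337 and 59 counts at 0, 2, 4 and 6 h, or 33.8%, 23.0% and 25.02% of untreated, a bent course (bend adjusted p = 0.0017) that missed the line test (edgeR adjusted p = 0.0521). Taf1a stood at 80.1% and Taf1d at 111% at 6 h. The exons of Taf1d overlap snoRNA models and its reads could not be told apart from theirs. Exons of Med12, Med20, Med23 and Med24 also overlap another gene model on the same strand, so their counts, and the ratios with Med12 and Med20, carry the same limit. Exons of other members, among them Taf3, Taf5, Taf10, Taf1c, Med7 and Med26, overlap gene models on the opposite strand. The strand setting of the counting was not given, so whether their counts include such reads is not known. Taf15, an RNA-binding protein of the FET family, stood at 118%.

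Pol II itself showed no called line in either direction. None of the 12 subunit genes fell or rose by edgeR, against 16.8% and 8.03% of all genes. An unadjusted p under 0.05 was found for 3 of them and for 5083 of all 10837 genes. DESeq2 called 1, Polr2a, as a fall, against 2162 falls and 1529 rises among all genes. With the deposited divisors 8 of 12 fell, as did 4963 of all 10837 genes. With libraries scaled on ribosomal protein mRNAs 5 fell, as did 2480 of all genes. These scalings moved the median of all genes over 6 h by −0.53 and −0.35 log2 relative to TMM. Polr2a, the catalytic subunit, had 323, 318, 298 and 282 scaled CPM, or 87.2% of untreated at 6 h with a counting interval of 83.9 to 90.7%, and was lower in the joint test (edgeR adjusted p = 0.0071). Polr2b, the second largest subunit, had 146, 156, 152 and 138, highest at 2 h. The lowest subunit at 6 h was Polr2i with 72.4% (line test, edgeR adjusted p = 0.081), and the highest was Polr2l with 147% (adjusted p = 0.0671).

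Of these subunits 4 (33.3%, against 10.7% of all genes) bent downward at an edgeR adjusted p under 0.05, namely Polr2b, Polr2g, Polr2h and Polr2k. Taf1 and Gtf2h4 were the other downward members. All downward members together make 8.11% of the 74 tested, against 10.7% of all genes. Polr2k, a small subunit shared with Pol I and Pol III, had 111, 250, 438 and 57 counts at 0, 2, 4 and 6 h, so its 128% at 6 h carried a wide counting interval of 91.2 to 178%. With the ribosomal protein scaling or the deposited divisors 0 members bent downward. Polr2e, Polr2f, Polr2c, Polr2j and Polr2d stood between 89.9% and 111% of untreated at 6 h, and Polr2m, whose protein binds Pol II and restrains it, at 121%.

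Upward bends were called for 12 members (16.2%), against 18.0% of all genes. The 6 largest were Med26, Med18, Taf1c, Med7, Taf5 and Taf5l, and the other 6 were Taf3, Taf4, Med13, Med13l, Taf1d and Med9. Each of the first 6 lay between 7.4% and 45.7% of untreated already at 2 h, whereas Med17, Med4 and Gtf2b, which fell along a straight line, still held between 61.2% and 68.4%. Taf8, which also fell with no called bend (edgeR adjusted p = 0.0602), was already at 41.4%, so the level at 2 h did not separate the shapes. With total counts only Med26, Med18 and Taf1c of these 12 kept their upward bend, and with the deposited divisors all 12 did.

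Ratios between members counted in the same library do not depend on how libraries are scaled. For 14 pairs of direct contact partners, picked after their values had been seen, the ratio was followed with its exact binomial counting interval. In 11 pairs (78.6%) the interval at 6 h lay apart from the untreated one, as it did in 68.6% of all 2701 pairs that the tested members can form, so nothing particular to contact partners is read from the count. Taf8 had 0.036 counts per count of Taf10 at 6 h, against 0.236 untreated, and the ratio at 6 h was 15.2% of untreated. Taf3 over Taf10 stood at 15.3% of its untreated ratio and Med17 over Med14 at 17.1%. Med4 over Med9 stood at 26.1%, Med18 over Med20 at 27.4% and Med7 over Med21 at 40.8%. These 6 ratios moved most, and in each the first gene ended far below its partner.

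Further pairs moved less. Gtf2e1 over Gtf2e2 stood at 49.0% of its untreated ratio at 6 h, Med13 over Med12 at 55.5%, Taf4b over Taf12 at 59.0%, Taf4 over Taf12 at 61.3% and Taf11 over Taf13 at 70.7%. In 3 pairs the intervals at 0 and 6 h overlapped. These were Gtf2f1 over Gtf2f2 with 82.0%, Polr2d over Polr2g, which form the stalk of Pol II, with 86.5%, and Polr2a over Polr2b with 92.2%. The intervals covered counting error only, and with 1 library per time no ratio had a replicate.

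**Figure D4:**
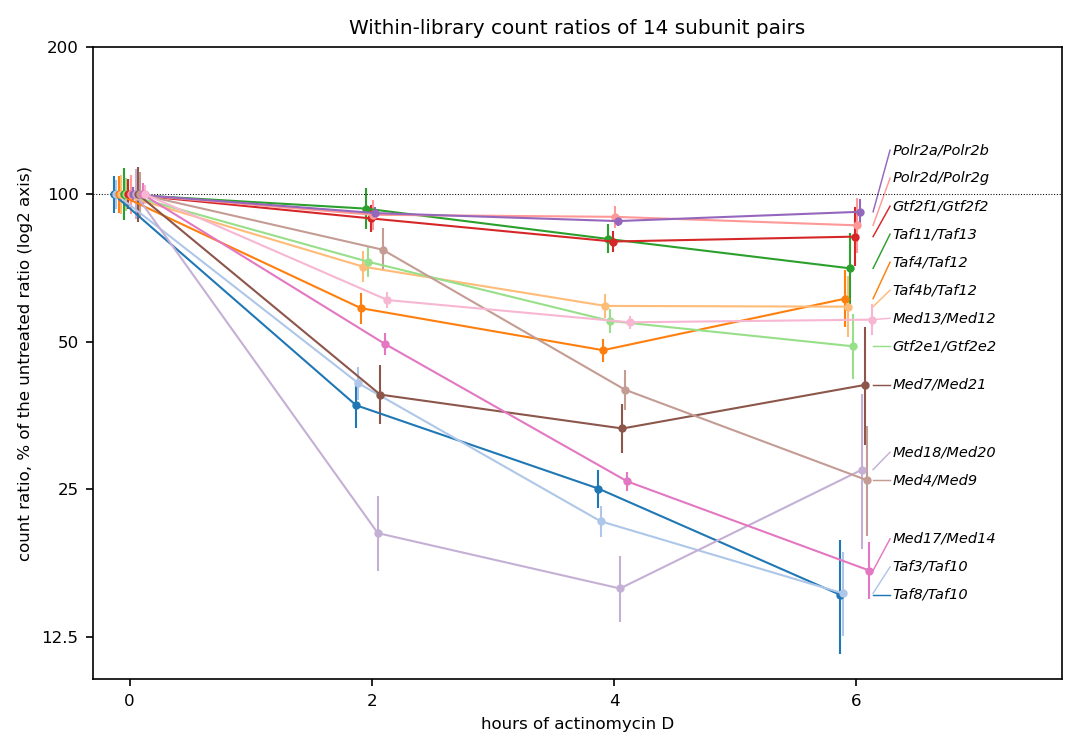
Count ratio of 14 contact pairs at 0, 2, 4 and 6 h as percent of the ratio in untreated cells (log2 axis), with exact binomial 95% counting intervals as bars and points shifted sideways for clarity. Taf8 over Taf10 ends lowest at 15.2% and Polr2a over Polr2b highest at 92.2%.

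The authors' deposited table also gives a half-life in hours for each gene. Recomputation gave the deposited half-life of all 14957 genes that have one to within 0.1%, as a line through the origin fitted to the log of the normalized values at 0, 2 and 4 h. The 6 h library did not enter these half-lives, so it could be set beside them. Half-lives in the authors' deposited table were under 2 h for 8 of 74 members (10.8%), against 9.26% of all genes tested. They were between 2 and 4 h for 13 (17.6%, against 17.4%) and between 4 and 8 h for 19 (25.7%, against 21.1%). They were between 8 and 24 h for 21 (28.4%, against 29.2%) and over 24 h for 8 (10.8%, against 13.9%). The remaining 5 (6.76%, against 9.12%) were Gtf2a2, Polr2l, Polr2k, Med14 and Gtf2h5. These carried a negative half-life there, which a fit gives when the value does not decline.

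The shortest half-lives in the authors' deposited table were 0.855 h for Med26, 1.06 h for Med18, 1.40 h for Taf5l, 1.42 h for Taf1c, 1.64 h for Taf5 and 1.65 h for Taf3. Of the Pol II subunits with a positive value there, Polr2i had the shortest with 4.82 h and Polr2a had 6.79 h. Extending each half-life to 6 h gave the level that the 0 to 4 h fit implies. Measured normalized values at 6 h were a median of 1.14 times that level over the members and 1.15 times over all genes. Of the members 6 (8.11%) exceeded it more than 2-fold, as did 12.3% of all genes. Med26 measured 9.85% of untreated on the deposited scale where its half-life gave 0.77%, Med18 12.4% where it gave 2.01%, and Taf5l 12.7% where it gave 5.09%. Taf1c (17.5% and 5.40%), Taf5 (21.4% and 7.88%) and Med7 (29.4% and 11.03%) were the other 3.

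**Figure D5:**
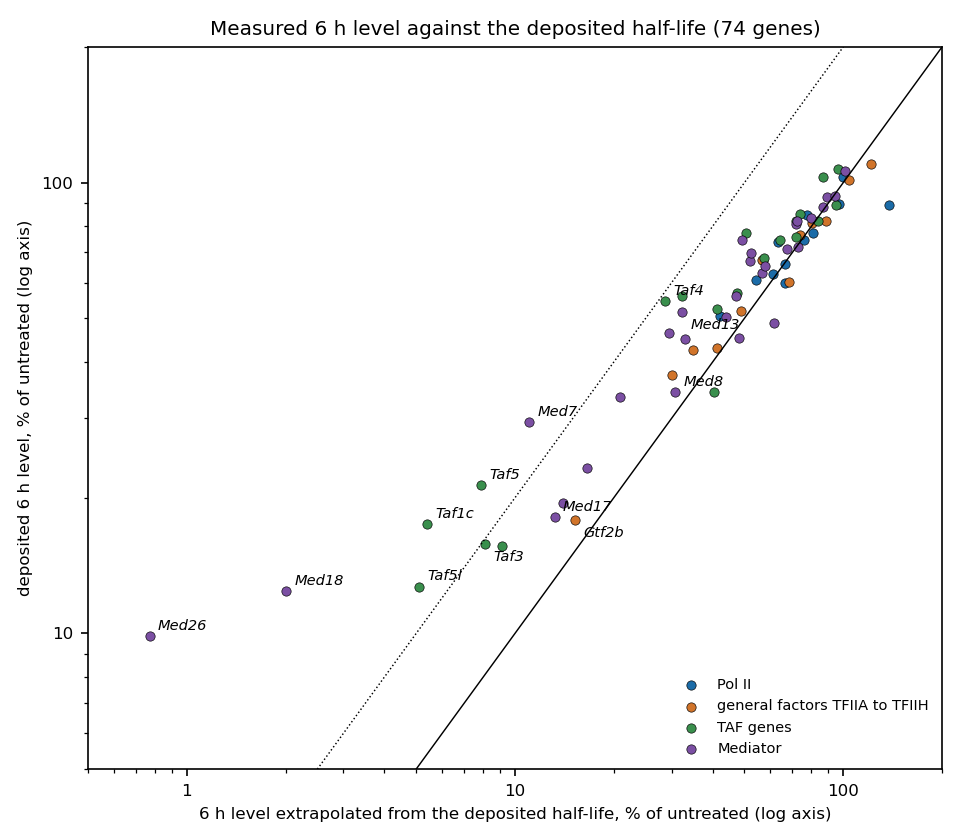
Level at 6 h measured on the deposited normalized scale (percent of untreated, vertical log axis) against the level extended from the authors' 0 to 4 h half-life (percent of untreated, horizontal log axis), 1 point per tested member, with lines at equality (solid) and at 2-fold above it (dotted). Med26 lies farthest above equality, at 9.85% measured and 0.77% extended.

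Sequence features of the transcripts were looked up in GENCODE M21 of the mm10 build, with 1 transcript per gene. The heptamer TATTTAT, the DNA spelling of a core AU-rich element known to hasten decay of many short-lived mRNAs, was searched on the transcript's sense strand in 3′ UTRs, overlapping matches counted. It was present in 22 of 74 members (29.7%), in 4 of 15 that fell (26.7%) and in 3 of 4 that rose (75%). Among all 9643 tested genes with a 3′ UTR value 28.4% held it, so the members' share was that of genes at large. A length of 0 counts as a value, as for the member Taf1a. Of all genes that fell 28.7% held the heptamer, and of all genes that rose 30.9%. The sites below are shown because they stand in members on both sides, with 30 bases each read from the GENCODE transcripts, 5′ to 3′, and the heptamer in capitals. The first 3 belong to members that fell and the last 3 to members that rose.
Taf3, chr2:9915598-9915627, minus strand: taaataataaaTATTTATgaagtagttatt
Taf8, chr17:47488377-47488406, minus strand: ttctcaatgtgTATTTATatatttctattt
Gtf2e1, chr16:37509979-37510008, minus strand: acctttttatgTATTTATcttaaatacatg
Taf10, chr7:105742408-105742437, minus strand: ggtaagattacTATTTATctgtataaactg
Taf13, chr3:108581390-108581419, plus strand: ggtggaagtagTATTTATtcttctggtaga
Gtf2h5, chr17:6085369-6085398, plus strand: attatgcttaaTATTTATagagattacggt

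With the same 7 letters in all 6 windows, Taf3, Taf8 and Gtf2e1 ended at 22.6%, 22.4% and 53.6% of untreated and Taf10, Taf13 and Gtf2h5 between 145% and 153%. Med17, Med4, Gtf2b and Taf5l, which fell steeply, hold no such heptamer in the annotated 3′ UTR. Taf3 holds 3 heptamers, the most among members that fell. Med18, whose loss was early, holds 1, 716 bases after its stop codon. A match describes the letters of a transcript model, and whether these sites are used was not tested.

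Mean CPM, not divided by transcript length here, went with the slope more than 3′ UTR length or coding length did. Across the 74 members, Spearman's rho with the slope was 0.045 for 3′ UTR length, −0.25 for coding length and 0.46 for mean CPM, and over 9643 genes it was −0.043, −0.20 and 0.29. These are descriptions across genes that share the same 4 libraries, and mean CPM itself includes the treated libraries.

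Among the members, 3 pairs lie close together on a chromosome. The closest, Med9 and the untested Med9os, lie on opposite strands of chromosome 11, 64 bases apart. Taf6l and Polr2g sit on the minus strand of chromosome 19, 6710 bases apart, and stood at 81.7% and 128% of untreated at 6 h. Med17 and Taf1d sit on opposite strands of chromosome 9, 26283 bases apart, and stood at 25.9% and 111%. In both of these pairs the neighbours ended at different levels.

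A further 6 members were too low to test. Med12l, the relative of Med12, had 22, 28, 41 and 5 counts at 0, 2, 4 and 6 h, and Med9os had 1, 3, 2 and 2. Taf9b had 0 counts in all 4 libraries, which allows up to 3 in each, and Taf7l and Gtf2a1l, known mainly from germ cells, had 1 count each, at 2 h. Taf9 had 19, 56, 71 and 7 counts, but its exons overlap those of Ak6 on the same strand, which had 983, 1442, 2169 and 338 counts. Reads of Taf9 and Ak6 could not be told apart where they overlap, so the level of Taf9 is uncertain.

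Partner genes under other names, some in the same complexes and others acting on Pol II, were followed as a list of 31. Of these 12 fell (38.7%, against 16.8% of all genes) and 1 rose (3.23%, against 8.03%). Of the partners within TFIID, TFIIH and the kinase module, only Tbp and Cdk7 passed the line test as falls. Tbp, the TATA-binding protein of TFIID and SL1, stood at 80.4%, 61.9% and 60.3% of untreated (slope −0.13, edgeR adjusted p = 0.038). Its relative Tbpl1 and its remover Btaf1 also fell, to 60.1% and 75.3%. Cdk7, the TFIIH kinase, fell to 45.1% (slope −0.20), while its cyclin Ccnh stood at 120.2% and its assembly factor Mnat1 at 90.2%. Ercc2, also of TFIIH, stood at 60.6%, 53.4% and 52.8% of untreated at 2, 4 and 6 h. It bent upward (edgeR adjusted p = 0.0044) and missed the line test (edgeR adjusted p = 0.0568). Ercc3 of TFIIH stood at 112% at 6 h. The steepest partner fall was that of Ctdp1, the phosphatase that recycles Pol II, with 2632, 1683, 1321 and 198 counts and 18.7% of untreated at 6 h (slope −0.43, edgeR adjusted p = 0.0221). Of the Paf1 elongation complex Leo1, Rtf1, Ctr9 and Paf1 fell, to 26.8%, 60.6%, 61.8% and 67.7%, and Cdc73 stood at 116%. Nelfa, Rpap2 and Ssu72 were the other falls and Tcea1, the elongation factor TFIIS, was the rise (0.092, adjusted p = 0.0477). Partner falls numbered 2 without the 4 h library, 4 with total counts, 17 with ribosomal protein scaling and 23 with the deposited divisors. Tcea1 did not pass under any of these 4 (edgeR adjusted p between 0.145 and 0.786). Falls among all genes numbered 342 of 10847 and then 1318, 2480 and 4963 of 10837 in these settings, in that order.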

How the data were processed

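Counts per gene were deposited by the authors for 4 libraries, untreated and at 2, 4 and 6 h of actinomycin D, in 1 table of 41324 genes. STAR 2.5.3a, featureCounts, Subread 1.6.3 and the mm10 build were used, per the submitters' processing notes. For the strand setting, annotation release and multiply mapped reads, the settings were not given in the sources used here. The normalized signal columns were deposited by the authors and equal the counts divided by 1 whole number per library. The half-life and R squared columns are a score per gene in the authors' deposited table. Columns without a sample numbered 0.

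The 10837 genes whose mean CPM reached 1 were fitted by edgeR 4.0.16 (R 4.3.3) on TMM-scaled counts, with quasi-likelihood tests of a slope (2 residual degrees of freedom), a bend (the quadratic term, 1 degree) and both jointly, each with Benjamini-Hochberg adjustment over all genes tested and a threshold of 0.05. The fits moderated each gene's dispersion across the genes tested. Joint calls took their direction from the mean log2 change, with a prior count of 0.5, of the treated libraries. Percentages of untreated carry exact binomial 95% intervals, which cover counting error only, and a count of 0 allows up to 3 counts. Alternatives were DESeq2 1.42.0, other scalings, other filters and leaving out each library.

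The text names, within each role, the member with the highest mean CPM and those with the lowest and highest slopes, every member past the slope test, the 6 largest bends, paralog pairs, Tbp and partners past the test. Other members, and the 14 pairs, were named after their values were seen. Members, lists and tests were chosen with earlier results of these data known. Transcript features came from GENCODE M21, and 74 of 74 tested members had a 3′ UTR value, which was a length of 0 for Taf1a. Coordinates are 1-based. Of the cell type markers, 1 is not reported here.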

Additional observations from a re-analysis of the deposited data

How the results depend on the processing

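No paired analysis was possible because each time has 1 library. With DESeq2 size factors or a mean CPM minimum of 5 the 15 falls and 4 rises were kept, Med12 passed as a further rise under both, and Polr2m did under the second. With total counts 0 members rose, 3 bent upward, 39 bent downward and 20 were lower in the joint test. With ribosomal protein scaling 24 fell, 1 rose, 22 bent upward, 0 bent downward and 3 were higher. With the deposited divisors 45 fell, 0 rose, 22 bent upward, 0 bent downward, 60 were lower and 0 higher. Among all 10837 genes 1318 fell and 205 rose with total counts, 2480 and 121 with ribosomal protein scaling and 4963 and 72 with the deposited divisors. These scalings moved the median of all genes over 6 h by 0.13, −0.35 and −0.53 log2 relative to TMM. DESeq2's Wald test gave 8 rises, against 1529 among all genes, and with no filter on low counts 15 members bent downward. Leaving out 1 library at a time gave 5 to 18 falls and 0 to 7 rises, against 342 to 2339 and 22 to 1253 among all genes. With the deposited divisors the slopes of Taf6 (−0.074), Gtf2h1 (−0.049), Gtf2e2 (−0.061), Taf1 (−0.049) and Polr2e (−0.072) turned negative and passed (edgeR adjusted p = 0.0401, 0.025, 0.0357, 0.0295 and 0.0419). Without the untreated library the slope of Med26 turned to 0.23 (edgeR adjusted p = 0.0494), against −0.86 to −0.45 without another single library. The causes were not tested, beyond the scalings' own shift and the fewer libraries. A prior count of 2 moved changes at 6 h by at most 0.051 log2. The 6 h library had the fewest counts and set the width of the counting intervals.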
